A study of Mus musculus with 13 samples.

Results

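The Notch pathway genes described here are the receptors Notch1 and Notch2, the ligands Jag1, Jag2 and Dll1, the glycosyltransferase Lfng, and the target genes Hes1, Hes5, Hey1 and Heyl. They were chosen by gene symbol and make up 10 of the 27998 gene identifiers in the count matrices, and all 10 symbols were found once. Their transcripts were counted in single cells of back skin from C57BL/6 mouse embryos and newborns, in 13 droplet libraries that held 86507 cells after filtering. Whole back skin was taken at embryonic days E14.5 and E16.5, and epidermis that had been separated from the dermis was taken at birth (P0). At each age there were 2 wild-type (WT) libraries and 2 libraries from Grhl3-/- mice, which lack GRHL3, a transcription factor of the upper epidermal layers. All 12 of these were made with the Chromium v2 chemistry, and 1 further WT P0 library was made with Chromium v1. WT and Grhl3-/- animals of an age were littermates. The P0 tissue was digested overnight, against 2 h for the embryos, so age and preparation cannot be told apart between E16.5 and P0.

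Notch receptors are surface proteins that are cut when a ligand on a neighbouring cell binds them. The freed intracellular part enters the nucleus, joins the DNA-binding protein RBPJ and switches on target genes, among them the Hes and Hey repressors. Lfng adds sugar to the receptor and changes which ligands activate it. In the epidermis the pathway is known for its part in the step from basal to spinous keratinocytes, in blood vessels for the formation of arteries and their coat of mural cells, and in muscle and nerve for holding progenitor cells back from differentiation. In build GRCm38 (GENCODE annotation) the receptors lie at chr2:26457903-26516663 (Notch1, - strand) and chr3:98013527-98150361 (Notch2, +), the ligands at chr2:137081456-137116644 (Jag1, -), chr12:112907819-112929776 (Jag2, -) and chr17:15367354-15376872 (Dll1, -), and Lfng at chr5:140607320-140615545 (+). The targets lie at chr16:30064384-30067796 (Hes1, +), chr4:154960923-154962371 (Hes5, +), chr3:8663359-8667256 (Hey1, -) and chr4:123233556-123249875 (Heyl, +).

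Each library held 5058 to 9157 cells after filtering and 49195602 to 105580896 unique molecular identifiers (UMIs, counted transcript molecules) in those cells, with a median of 7448 to 9976 UMIs per cell. Cells were clustered at each age without any Notch pathway gene, and a cluster was named "X-like" from fixed marker genes. The Chromium v1 library was clustered alone, so its classes may not match those of the other P0 libraries. Levels are given in CPM, the UMIs of a gene scaled by the total UMIs of the summed cells of a class in a library, and the classes of the interfollicular epidermis (IFE) are basal-like, differentiated-like (clusters with Krt1 and Krt10 among their leading genes) and terminally differentiated-like (clusters with the cornified envelope gene Lor among theirs). Because the classes came from clustering of the same cells, differences between them are described without a test. At P0, unnamed clusters of 1669 and 996 cells had the basal marker list as their best one. Their scores of 1.08 and 1.25 were under its limit of 1.4. Fst was among the leading genes of both, and Dcn led the larger. The paper names Fst and Dcn as markers of its second basal population. Basal-like cells at P0 may therefore be only a part of the basal layer, and the effect of this was not tested. Counting error is not shown by these levels, and 1 value per library is the replicate throughout. Grhl3 itself was lower in the differentiated-like cells (here with the terminally differentiated-like ones) of the Grhl3-/- libraries at every age but was not at 0. There it was 84.6 and 108.5 CPM in WT against 58.6 and 61.7 CPM in Grhl3-/- at E14.5. It was 36.2 and 36.0 against 18.0 and 12.6 CPM at E16.5, and 27.3 and 26.4 against 8.64 and 18.6 CPM at P0. The groups overlapped for Grhl3 in basal-like cells at E14.5 and E16.5 and over all cells at E14.5, where it was 4.42 and 7.3 CPM in WT and 4.08 and 9.89 CPM in Grhl3-/-. Counts per gene do not show which part of the gene was deleted, so these levels do not check the deletion. The methods name 1 male and 1 female per group, whereas Xist and Ddx3y transcripts marked all 5 P0 libraries as male, at E14.5 only WT replicate 2 as female, and at E16.5 both WT libraries and Grhl3-/- replicate 2 as female. Grhl3-/- replicate 1 at E16.5 held 1997 Ddx3y UMIs and 644 Xist UMIs. The change from E16.5 to P0 in WT thus set 2 female libraries against 2 male ones, so age and sex cannot be told apart there. Sex was also not balanced between the genotypes at E14.5 and E16.5, and its part in those comparisons was not tested. Grhl3-/- replicate 2 at E14.5 stood apart in make-up, with 745 basal-like cells against 192 to 290 in the other E14.5 libraries, and leaving it out made no Notch gene called between genotypes at that age. Libraries shared at most 1.57% of the smaller library's barcodes.

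The receptor Notch1 was found at every stage of the interfollicular epidermis, and its place along differentiation differed between ages. At E14.5 the level in differentiated-like cells was 138 and 154 CPM in WT and 170.0 and 166 CPM in Grhl3-/-, above the 63.2 and 68.0 CPM and the 94.3 and 60.4 CPM of basal-like cells. At E16.5 both stages were close, with 92.8, 78.7, 85.2 and 104 CPM in differentiated-like and 72.0, 76.7, 89.4 and 88.5 CPM in basal-like cells of WT replicates 1 and 2 and Grhl3-/- replicates 1 and 2. By P0 the order was the opposite: basal-like cells held 207 and 189.8 CPM in WT and 152 and 123 CPM in Grhl3-/-, while differentiated-like cells held 55.7 and 63.2 CPM and 132 and 82.2 CPM. The Chromium v1 library had the same order, 87.8 CPM in basal-like and 46.6 CPM in differentiated-like cells. Differentiated-like cells thus lay above basal-like cells in all 4 libraries at E14.5 and below them in all 5 at P0. Cell cycle genes in WT differentiated-like cells, with the terminally differentiated-like ones, summed to 1337 and 1480 CPM at E14.5. The sums were 491 and 478 CPM at E16.5 and 140 and 108 CPM at P0. In basal-like cells they were 1028 and 1055, 1542 and 1406, and 1380 and 1322 CPM at these ages. The part of the cell cycle in the Notch1 order was not tested. In terminally differentiated-like cells, present in 6 libraries, Notch1 was lower than in basal-like cells every time, at 4.5 to 27.3 CPM.

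The second receptor, Notch2, was higher in differentiated-like than in basal-like cells in 12 of 13 libraries. Basal-like cells held 9.38 to 17.2 CPM at E14.5 and 11.7 to 18.4 CPM at E16.5, against 25.4 to 39.5 CPM and 16.3 to 51.6 CPM in differentiated-like cells. The exception was Grhl3-/- replicate 2 at E16.5, with 16.3 CPM after 18.4 CPM. At P0 the 2 WT libraries stood apart from each other, with 64.8 and 31.2 CPM of Notch2 in differentiated-like cells, and the Chromium v1 WT library held 4 CPM.

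**Figure D1:**
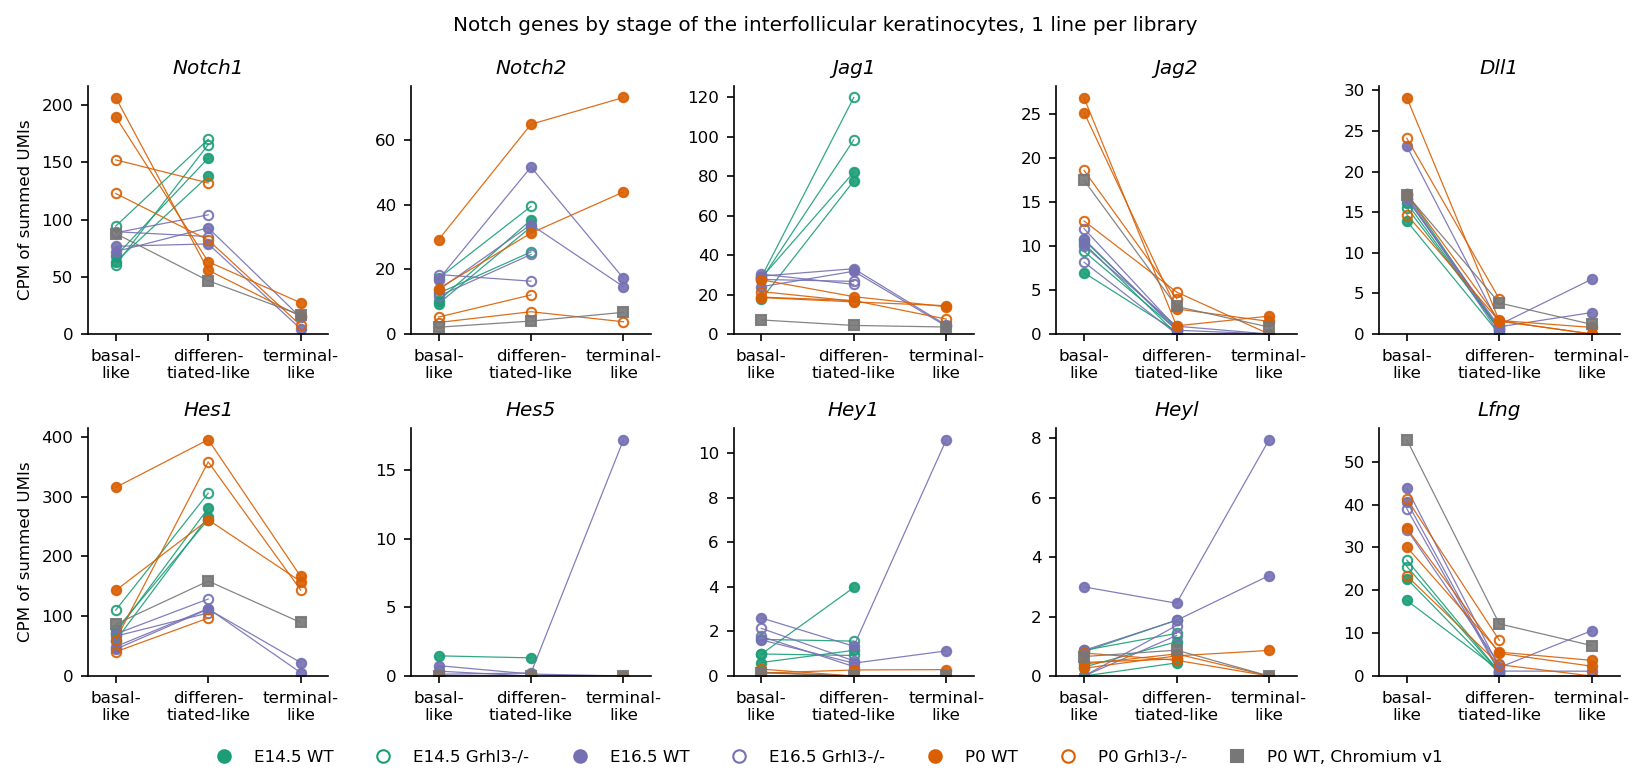
Level of each Notch gene (CPM of summed UMIs, linear axes that start at 0) in basal-like, differentiated-like and terminally differentiated-like cells of the interfollicular epidermis, with 1 line per library coloured by age and genotype. Jag2, Dll1 and Lfng are lower in differentiated-like than in basal-like cells in all 13 libraries and Hes1 is higher in all 13, whereas Notch1 is higher at E14.5 and lower at P0.

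Among the ligands, Jag2 and Dll1 were highest at the basal stage in every library and Jag1 was not. In basal-like cells Jag2 was 10.3, 6.96, 10.7 and 9.38 CPM at E14.5, 10.0, 10.8, 8.16 and 12 CPM at E16.5 and 26.8, 25.2, 18.6 and 12.8 CPM at P0 (WT replicates 1 and 2, then Grhl3-/- replicates 1 and 2), and in differentiated-like cells it lay between 0 and 4.77 CPM. Dll1 was 13.9 to 29.1 CPM in basal-like and 0 to 4.31 CPM in differentiated-like cells over the 13 libraries. Lfng behaved alike, with 17.6 to 55.1 CPM in basal-like and 0.576 to 12.2 CPM in differentiated-like cells. These 3 genes were lower in differentiated-like than in basal-like cells in 13 of 13 libraries, which was so for 23.9% of the 9747 genes with a mean of at least 5 CPM in either class. For each of the 3 genes, every differentiated-like value also lay below every basal-like value over all ages and genotypes, which was so for 2.76% of those genes.

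Jag1, the other Jagged ligand, was the differentiated-stage ligand at E14.5 and was near level between stages later. At E14.5 it was 77.6, 82.0, 120 and 98.4 CPM in differentiated-like cells against 17.6, 28.4, 28.7 and 27.6 CPM in basal-like cells. The E16.5 values of Jag1 were 31.8, 33.1, 26.7 and 25.2 CPM against 24.0, 29.4, 27.7 and 30.3 CPM, and at P0 they were 19, 16.3, 16.7 and 17 CPM against 27.5, 18.5, 21.5 and 18.7 CPM. Differentiated-like cells were the higher ones in 6 libraries and the lower ones in 7.

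Of the 4 target genes, Hes1 was the one found at more than a few CPM in basal-like and differentiated-like cells. It was higher in differentiated-like than in basal-like cells in 13 of 13 libraries, which was so for 8.68% of genes. At E14.5 the differentiated-like cells held 281, 267, 306 and 262 CPM of Hes1 and the basal-like cells 72.0, 59.3, 110 and 76.6 CPM. At E16.5 both were lower in level, 112, 113, 129 and 105.5 CPM against 44.9, 49.2, 70.2 and 66.7 CPM. The P0 values of Hes1 were widely spread, with 396, 261, 96.9 and 358 CPM in differentiated-like and 316, 143, 40.5 and 60.6 CPM in basal-like cells, and 159 and 86.8 CPM in the Chromium v1 library. In each library the differentiated-like value still lay above the basal-like one. In terminally differentiated-like cells Hes1 was above the basal-like level in 3 of 6 libraries and below it in 3, among them both E16.5 WT libraries, with 22.5 and 5.63 CPM. In these 2 classes Hey1 reached no more than 3.97 CPM, Heyl no more than 3.00 CPM and Hes5 no more than 1.47 CPM in any library.

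Shares of cells with a UMI were compared after each cell with at least 3000 UMIs was thinned to that number. Cells with fewer UMIs were left out. The median share of basal-like cells with at least 1 UMI, over 13 libraries, was 3.79% for Jag2, 5.17% for Dll1, 9.45% for Lfng, 18.2% for Hes1 and 21.1% for Notch1. Differentiated-like cells had 0.217%, 0.136%, 0.358%, 44% and 25.9%, and macrophage or Langerhans-like cells, taken as the background for genes they should lack, had 0.495%, 0%, 6.93%, 2.54% and 6.02%. The Jag2 shares of differentiated-like cells, 0 to 1.19%, overlapped the 0 to 1.85% of that background over the libraries, and their Dll1 shares of 0 to 1.18% overlapped its 0 to 0.452%. Lfng was itself found in macrophage or Langerhans-like cells, at 27.1 to 33.2 CPM at E14.5, so they give no background for it. Nor do they for Hes1, where their shares ran from 1.12 to 24.9% over the libraries, against 9.81 to 48.3% in basal-like and 20.2 to 59.3% in differentiated-like cells. Their Notch1 shares ran from 3.82 to 12.1%, so they give no clear background for Notch1 either. Median depth before thinning was 8327 to 10825 UMIs in basal-like, 7658 to 15388 in differentiated-like and 5892 to 11918 in macrophage or Langerhans-like cells.

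A motif of RBPJ, written TGGGAA, was searched on both strands in the 250 bases before the gene start that RefSeq gives, in RefSeq sequence of build GRCm38.p6. These starts are not all those of the GENCODE spans given above: the windows of Notch1 and Jag2 and 1 of the pair of Dll1 lay inside the gene's span, and those of Jag1, Notch2 and Lfng partly overlapped it. At least 1 match was present in 21.6% of 32851 windows of that length and at least 2 matches in 2.77%. Windows were at hand for 7 of the 10 genes, all but Hes1, Hey1 and Heyl. Hes5 and Lfng held 2 matches each, and Notch1, Notch2, Jag1, Jag2 and both windows of Dll1 held none. The windows of Hes5 (chr4:154960673-154960922, + strand, matches beginning 226 and 82 bases before the start) and of Lfng (chr5:140607091-140607340, + strand, matches beginning 135 and 108 bases before it) are shown because they hold the matches, which stand in capitals. A match is a run of letters and not a measured binding site, and the motif AACCGGTT of GRHL factors was in none of the windows of the 7 genes and in 0.116% of all windows.
Hes5: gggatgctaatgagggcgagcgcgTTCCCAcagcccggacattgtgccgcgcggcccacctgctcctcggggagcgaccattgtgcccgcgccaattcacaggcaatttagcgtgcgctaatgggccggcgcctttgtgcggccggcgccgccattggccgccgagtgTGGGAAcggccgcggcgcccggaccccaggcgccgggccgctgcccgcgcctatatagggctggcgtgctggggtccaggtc
Lfng: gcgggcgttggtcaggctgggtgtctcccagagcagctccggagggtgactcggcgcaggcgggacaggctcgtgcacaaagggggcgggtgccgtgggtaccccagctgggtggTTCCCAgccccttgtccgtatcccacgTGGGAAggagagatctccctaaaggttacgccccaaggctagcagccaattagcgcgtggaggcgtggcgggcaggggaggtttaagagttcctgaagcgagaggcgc

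To look at stage without class borders, interfollicular cells of each library were ordered by diffusion pseudotime computed without Notch pathway genes, and divided into 10 bins of equal cell number. Basal-like cells had a median place at 20.8 to 42.2 percent of the order and differentiated-like cells at 62.4 to 90.9 percent. Late stands for bins 8 to 10 and early for the matching bins at the start of the order. Krt10, a keratin of the spinous layer, was higher late than early in 13 of 13 libraries, and the basal keratin gene Krt14 in 1. The first cell of each order was picked by marker scores that include Krt14 and Krt10, so neither checks the order. Lor was higher late in 10 of 13 libraries and the cell cycle gene Mki67 in 6. Lfng, Dll1 and Jag2 were lower late than early in 13 of 13 libraries, with median log2 differences of -2.11, -2.19 and -1.35. For the log2 differences along the order, 5 CPM was added to both levels. This shrinks them, most of all for genes at low levels, so their sizes do not compare between genes. Hes1 was higher late in 12 of 13 (median 0.98), or in 8 of 13 (median 0.57) with bins of equal width, and Notch2 in 12 of 13 (median 0.99). For Notch1 the late bins were the higher ones in 5 libraries, with a median of -0.11, and for Jag1 in 6, with a median of -0.33. The bin with the highest Notch1 level was 7, 7, 8 and 6 at E14.5 and 7, 7, 5 and 7 at E16.5, but 1, 2, 7 and 1 at P0 and 4 in the Chromium v1 library. Hes1 peaked in bins 9, 8, 7 and 8 at E14.5, 8, 9, 5 and 7 at E16.5 and 6, 5, 10 and 10 at P0. The peak of Notch1 lay in bins 5 to 8 before birth and in bins 1 to 4 in 4 of the 5 P0 libraries. In P0 Grhl3-/- replicate 1 it lay in bin 7. No library had its Hes1 peak before bin 5. Bins were set by the cells of each library, so a bin number does not mark the same stage in every library. Basal-like cells were 1590 of the 1934 ordered cells in P0 Grhl3-/- replicate 1, against 522 of 1151 and 477 of 1158 in P0 WT. In that Grhl3-/- library, differentiated-like cells had a median place at 90.9 percent, after bin 7. In WT, basal-like cells were 192 of 347 and 290 of 515 at E14.5, and 819 of 1245 and 985 of 1508 at E16.5. Grhl3-/- replicate 2 at P0 was the library whose order followed its first principal component least (Spearman's rho 0.12 across cells, against 0.57 to 0.88 in the others).

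**Figure D2:**
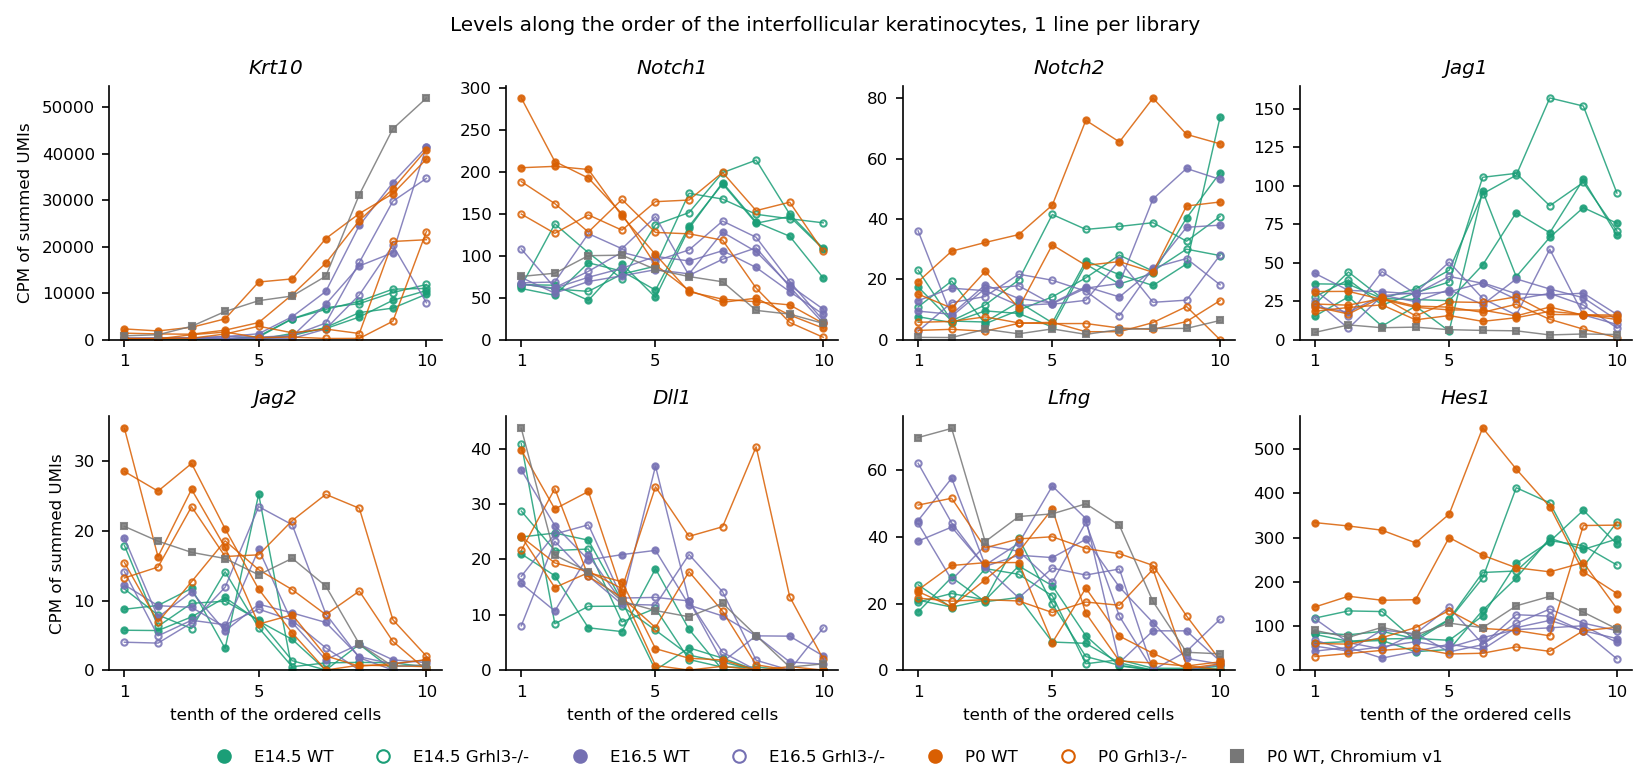
Level (CPM of summed UMIs, linear axes) of Krt10 and 7 Notch genes in 10 bins of equal cell number along the order of interfollicular keratinocytes, from early (bin 1) to late (bin 10), with 1 line per library coloured by age and genotype. Dll1, Jag2 and Lfng are lower late than early in all 13 libraries. Notch1 peaks in bins 5 to 8 before birth and in bins 1 to 4 in 4 of the 5 P0 libraries. Bins were set by the cells of each library, so a bin number does not mark the same stage in every library.

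Outside the interfollicular epidermis, each gene had its own pattern of cell classes, given here as the mean of the 2 WT libraries. Notch1 led in the epithelium: at P0 it was 284 CPM in upper follicle-like, 198 CPM in basal-like and 194 CPM in inner root sheath-like cells, of which the last pair overlapped, and 87.9 CPM in hair follicle-like and 82.2 CPM in sebaceous-like cells, which also overlapped. In embryos, endothelial-like cells held 62.1 CPM of Notch1 at E14.5 and 66.2 CPM at E16.5. Notch1 was low in fibroblast-like cells, at 8.25 to 13.7 CPM over all embryonic libraries. Notch2, in contrast, was highest in mast cell-like cells before birth (50.5 CPM at E14.5 and 71.3 CPM at E16.5), with fibroblast-like cells at 44 and 49.6 CPM. At E14.5 these 2 classes overlapped for Notch2. At P0 the leading classes for Notch2, terminally differentiated-like (58.5 CPM), upper follicle-like (50.2 CPM), sebaceous-like (48.7 CPM) and differentiated-like cells (48 CPM), all overlapped. Its level in dermal condensate-like cells, the mesenchyme beneath the hair germ, was 22.9 CPM at E14.5 and 60.2 CPM at E16.5.

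The ligands were likewise split by tissue compartment. Jag1 was highest in differentiated-like cells at E14.5 (79.8 CPM, ahead of 59.5 CPM in pericyte-like cells) and highest in pericyte-like cells at E16.5 (93.7 CPM, ahead of 37.9 CPM in Schwann-like cells). At P0, where the dermis had been removed, the highest classes for Jag1 overlapped. They held 26.4 CPM in inner root sheath-like, 26.3 CPM in hair follicle-like and 23 CPM in basal-like cells. A fibroblast-like cluster of 189 cells at P0 was not ranked, since WT replicate 2 held only 15 of them. Jag2 was highest in endothelial-like (9.97 CPM) and basal-like cells (8.62 CPM) at E14.5, which overlapped, and in basal-like cells at P0 (26 CPM), above hair follicle-like cells (16.2 CPM). Dll1 led in dermal condensate-like cells, with 29 CPM at E14.5 and 47.2 CPM at E16.5, and came second in basal-like cells, with 15 and 19.9 CPM, which at E14.5 overlapped muscle-like cells (13.9 CPM). At P0 it was 23.2 CPM in basal-like cells and 5.7 CPM in the next class, upper follicle-like cells. Hair follicle-like cells held 2.25 to 5.52 CPM of Dll1 over all libraries, below every basal-like value.

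Lfng followed another order. At E16.5 it was highest in hair follicle-like cells (62.5 CPM), followed by endothelial-like (50.2 CPM), basal-like (42.2 CPM) and dermal condensate-like cells (39.8 CPM), of which the last 3 overlapped with their neighbours. At P0 it was 60 CPM in hair follicle-like, 49 CPM in T cell-like and 32.3 CPM in basal-like cells. In macrophage or Langerhans-like cells at P0, Lfng was 5.09 to 15.5 CPM in the Chromium v2 libraries and 30.4 CPM in the Chromium v1 library.

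Among targets, Hes1 was found in both epithelium and mesenchyme, whereas Hes5, Hey1 and Heyl were, among the named classes of the embryos, highest in the dermis and its vessels. An unnamed E14.5 cluster held more Hes5 than any of these, at 388 and 130 CPM in the 2 WT libraries. Hes1 was highest in differentiated-like cells at E14.5 (274 CPM), above mast cell-like cells (173 CPM), and in mast cell-like cells at E16.5 (131 CPM), above differentiated-like and pericyte-like cells (112 CPM each). At P0 its leading classes overlapped, with 436 CPM in upper follicle-like, 328 CPM in differentiated-like, 269.7 CPM in inner root sheath-like, 240.5 CPM in hair follicle-like and 229 CPM in basal-like cells. Heyl was highest in pericyte-like cells in all 8 embryonic libraries, with 204, 213, 207 and 211 CPM at E14.5 and 146, 142, 143 and 127 CPM at E16.5 in WT replicates 1 and 2 and Grhl3-/- replicates 1 and 2. Pericytes are the mural cells of small vessels. Schwann-like cells came second for Heyl at E14.5 (69.2 CPM) and dermal condensate-like cells at E16.5 (67.6 CPM). Hey1 was highest in endothelial-like cells at E14.5 (40.8 CPM) and in dermal condensate-like cells at E16.5 (59 CPM), above endothelial-like cells (35.8 CPM). In P0 epidermis Heyl was 28.3 CPM in upper follicle-like and 21.4 CPM in inner root sheath-like cells, which overlapped, and Hes5 reached no more than 2.75 CPM in any of the named keratinocyte classes.

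Dermal condensate-like cells at E16.5 were high in many members of the pathway at once. Hes5 was 104, 105, 67.7 and 121 CPM there, against 17.9, 17.4, 5.95 and 8.85 CPM at E14.5, where the counts were 4 to 13 UMIs per library. Hey1 was 51, 67, 60 and 53.7 CPM against 11.9 to 17.4 CPM, and Heyl 45 to 73 CPM against 17.9 to 34.7 CPM. The ligand Dll1 was 38.9 to 49.5 CPM against 14.9 to 34.3 CPM, and Lfng 27.5 to 41.1 CPM against 1.49 to 5.49 CPM. Notch2 was 57.1 to 80.7 CPM against 20.6 to 38.7 CPM, Jag1 10.5 to 17.2 CPM against 0 to 1.77 CPM, and Hes1 39 to 44.4 CPM against 12.6 to 23.8 CPM. Thus every E16.5 library lay above every E14.5 library in this class for 8 of the 10 Notch genes, which was so for 11.3% of the 9762 genes with a mean of at least 5 CPM at either age. The exceptions were Notch1 and Jag2, of which Jag2 had a mean below 5 CPM at both ages and so lay outside the genes of that share. The class held 86 to 152 cells per library from 1 cluster at E14.5. At E16.5 it held 496 to 760 cells from a pair of clusters. The smaller of the pair, with 712 cells over the 4 libraries, was led by Bmp3, Hes5, the marker Sox18 and Inhba. The larger, with 1643 cells, was led by Bmp4, Wisp1 and Cpne5. None of its 10 leading genes was a condensate marker, and it scored 1.57 against a limit of 1.5. The make-up of the class thus differed between the ages, and its part in these levels was not tested.

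**Figure D3:**
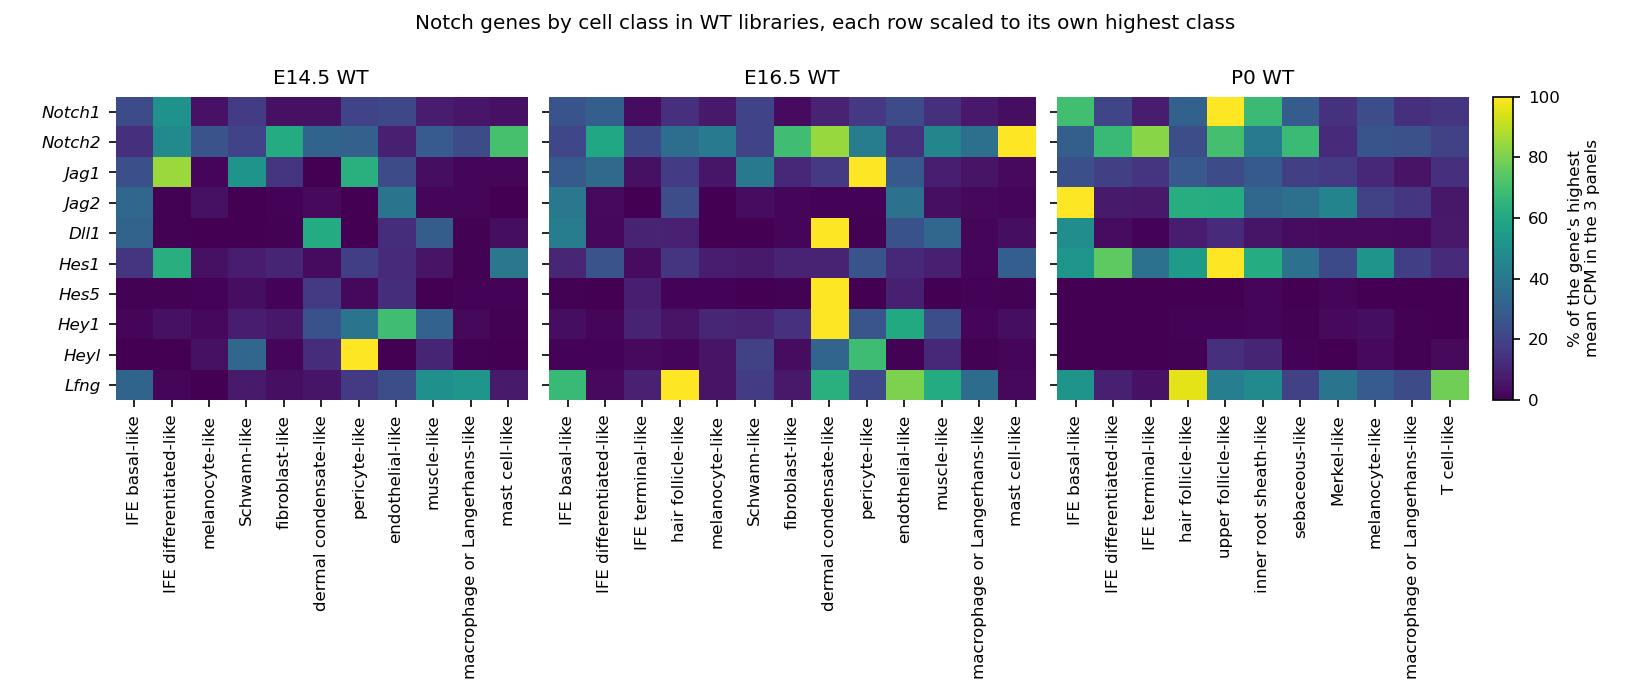
Mean level of each Notch gene over the 2 WT libraries in each cell class at E14.5, E16.5 and P0, coloured as a percentage of that gene's highest mean CPM over the 3 panels, so that colours compare classes within a gene and not genes with each other. Hes5, Hey1 and Heyl are bright in dermal and vessel classes and dark in keratinocytes, and Dll1 is brightest in dermal condensate-like cells, followed by basal-like cells.

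The genes whose pattern was most like those of the Notch genes were found by Pearson correlation of mean log2(CPM + 1) over 36 WT class-by-age units, among 7268 genes, as a description. These units share libraries and depth. Jag2 was most like Itga3 (r = 0.93), Edn1 (0.91) and Gltscr2 (0.86). Itga3 is a laminin-binding integrin of basal keratinocytes and also a marker used to name basal-like cells. Hes5 was most like Hapln3 (0.81) and Sox18 (0.79), one of the markers used to name dermal condensate-like cells, and Hey1 was most like Tmem47 (0.87). Hes1 was most like Rcor1 (0.79), Lfng like Tgif1 (0.78), Dll1 like Adamts18 (0.77), Heyl like Gjc1 (0.75), Jag1 like Actn4 (0.72) and Notch2 like Clint1 (0.61). The Notch2 value was the lowest of these.

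Changes with age were tested in WT libraries on UMIs summed per library and class, by edgeR's quasi-likelihood test fitted across all genes, with Benjamini-Hochberg adjustment and a threshold of 0.05. A log2 fold change is followed by its standard error (SE), and n is 2 libraries per group. The test is of the summed UMIs, so it does not separate a change in the share of expressing cells from one in the level per cell. Between E14.5 and E16.5, Lfng rose in basal-like cells by 1.11 (SE 0.25, edgeR adjusted p = 0.0062), from 17.6 and 22.7 CPM to 43.8 and 40.7 CPM. It was the 1 gene called of 8 Notch genes tested, where 16.1% of all genes were called, and without E14.5 WT replicate 1 the call was lost (0.99, adjusted p = 0.058). Marker genes of other cells moved in the same class: hair follicle markers summed to 528 and 558 CPM at E14.5 and to 2159.6 and 1603 CPM at E16.5, and differentiated markers to 584 and 459 CPM and to 4257 and 4668 CPM, and their part in the Lfng result was not tested. In differentiated-like cells Jag1 fell by 1.26 (SE 0.16, edgeR adjusted p = 0.0003), and so did Notch1, by 0.74 (SE 0.19, edgeR adjusted p = 0.018), in 2 of 6 tested genes against 19.3% of all genes called. Summed with the terminally differentiated-like cells, as in the test, Jag1 went from 77.6 and 82.0 CPM to 27.8 and 29.9 CPM and Notch1 from 138 and 154 CPM to 81.5 and 70.3 CPM. The make-up of this class differed between the ages, with terminal markers at 145 and 215 CPM and then 11178 and 15458 CPM and differentiated markers at 19164 and 18038 CPM and then 62166 and 77709.7 CPM. In the terminally differentiated-like cells of E16.5, Notch1 was 14.6 and 4.5 CPM and Jag1 3.97 and 4.5 CPM. Cell cycle genes in the tested class went from 1337 and 1480 CPM to 491 and 478 CPM. The part of the make-up in these results was not tested. Hes1 went from 281 and 267 CPM to 99 and 101 CPM and was not called (-1.25, SE 0.44, edgeR adjusted p = 0.068), but it was called when either Grhl3-/- library of P0 was left out of the shared fit. The Notch1 call was lost when any 1 of the 4 WT libraries of these ages was left out, with an adjusted p of up to 0.14.

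In fibroblast-like cells, 4 of 9 tested Notch genes changed between E14.5 and E16.5, where 36.9% of all genes were called. Hey1 rose by 1.27 (SE 0.21, edgeR adjusted p = 0.0014), Lfng by 0.95 (SE 0.23, adjusted p = 0.011) and Heyl by 0.93 (SE 0.22, adjusted p = 0.0084), while Notch1 fell by 0.50 (SE 0.11, adjusted p = 0.0062). Hey1 in these cells went from 4.01 and 3.69 CPM to 8.57 and 8.06 CPM, and Heyl from 4.01 and 3.69 CPM to 5.27 and 8.13 CPM. Fibroblast markers in the class summed to 19069.8 and 18647 CPM and then to 35798 and 35708 CPM, basal keratinocyte markers to 68.2 and 69.9 CPM and then to 203 and 296 CPM, and terminal markers to 2.74 and 4.49 CPM and then to 218 and 379 CPM, and their part in these results was not tested. The Heyl call was lost with doublets removed (0.52, adjusted p = 0.09), with clusters at a resolution of 0.5 (0.23, adjusted p = 0.41), without E14.5 WT replicate 2 or without E16.5 WT replicate 2, and the Lfng call without E14.5 WT replicate 2 or without E16.5 WT replicate 1.

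Between E16.5 and P0 the WT basal-like cells gained the receptor Notch1, the ligand Jag2 and the target Hes1. Hes1 was also higher at P0 in WT classes outside the keratinocytes. Melanocyte-like cells held a mean of 35.5 CPM at E16.5 and 226 CPM at P0. Macrophage or Langerhans-like cells held 6.34 and 81.0 CPM, and these differences were not tested. The make-up of the macrophage or Langerhans-like class differed between these ages. At E16.5 its clusters were led by Pf4 and by S100a8, and at P0 by C1qb and by H2-Ab1. The part of this in its Hes1 levels was not tested. In WT basal-like cells Notch1 rose by 1.45 (SE 0.16, edgeR adjusted p = 1.3e-06), from 72.0 and 76.7 CPM to 207 and 189.8 CPM. Jag2 rose by 1.36 (SE 0.21, edgeR adjusted p = 3.2e-05), from 10.0 and 10.8 CPM to 26.8 and 25.2 CPM. Hes1 rose by 2.31 (SE 0.26, edgeR adjusted p = 1.7e-06), from 44.9 and 49.2 CPM to 316 and 143 CPM, and Hey1 fell from 2.61 and 1.62 CPM to 0 and 0.13 CPM (log2 fold change -4.59, SE 0.84, adjusted p = 0.0002). These were 4 of 8 tested Notch genes, where 60.1% of all genes were called. Notch2 (0.54, SE 0.27, edgeR adjusted p = 0.094) was called higher under 5 of 22 alternatives and Lfng (-0.34, SE 0.21, adjusted p = 0.17) was called lower under 5 of 22. Fibroblast marker genes in these basal-like cells went over the same interval from a sum of 3689 and 3118 CPM to 723 and 991 CPM and erythroid marker genes from 5379.6 and 3818 CPM to 2.29 and 0.655 CPM, and their part in the Hey1 result was not tested. The Chromium v1 P0 WT library, which was not in the fit, held 87.8 CPM of Notch1, 17.5 CPM of Jag2 and 86.8 CPM of Hes1 in basal-like cells. Its values lay above both E16.5 WT libraries and below both Chromium v2 P0 WT libraries for these 3 genes.

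Hair follicle-like cells also gained Notch1, Jag2 and Hes1, of which Hes1 was higher at P0 in melanocyte-like and macrophage or Langerhans-like cells too. The make-up of the macrophage or Langerhans-like class differed between these ages. The hair follicle-like class was 1 cluster at E16.5 and 7 clusters at P0, so its make-up differed between the ages, and the part of this was not tested. Of 9 tested, Notch1 rose by 1.28 (SE 0.17, edgeR adjusted p = 8.1e-05), Jag2 by 1.49 (SE 0.24, adjusted p = 0.00032), Hes1 by 1.98 (SE 0.24, adjusted p = 3.3e-05) and Jag1 by 0.75 (SE 0.24, adjusted p = 0.02), while Hey1 fell by 2.43 (SE 0.54, adjusted p = 0.0026) and Heyl by 1.52 (SE 0.58, adjusted p = 0.049), where 44.9% of all genes were called. Fibroblast marker genes in this class summed to 2801 and 2650.4 CPM at E16.5 and to 389 and 471 CPM at P0, and erythroid marker genes to 2964 and 11487 CPM and to 2.33 and 0.626 CPM, and their part in the Hey1 and Heyl results was not tested. The Jag1 call was lost when either E16.5 WT library or P0 WT replicate 1 was left out, and the Heyl call when any 1 of the 4 E16.5 libraries was left out, with doublets removed (-0.09, adjusted p = 0.94) or with clusters at a resolution of 0.5 (-1.12, adjusted p = 0.14). In the Chromium v1 library, hair follicle-like cells held 37.4 CPM of Notch1, inside the E16.5 WT range of 37.1 to 40.4 CPM and below the 97.7 and 78.1 CPM of the Chromium v2 P0 WT libraries. In differentiated-like cells (here with the terminally differentiated-like ones) Hes1 rose by 1.68 (SE 0.44, edgeR adjusted p = 0.0088), Jag2 rose by 1.94 (SE 0.62, adjusted p = 0.023) and Jag1 fell by 0.60 (SE 0.16, adjusted p = 0.0092), in 3 of 6 tested against 46.9% of all genes. Hes1 went from 99 and 101 CPM to 324 and 228 CPM in this class and Jag1 from 27.8 and 29.9 CPM to 17.3 and 15.7 CPM. Terminal markers in the class went from 11178 and 15458 CPM to 4670.1 and 4508 CPM and basal markers from 10195 and 9088 CPM to 3742 and 3632 CPM, and their part in these results was not tested. The Jag2 levels behind this call were 1.27 and 2.39 CPM at P0, and 10 of 22 alternatives did not keep it, among them DESeq2. Over the libraries, the Jag2 shares of differentiated-like cells (0 to 1.19%) overlapped those of the macrophage or Langerhans-like background (0 to 1.85%). The call thus rests on levels that are not set apart from background. Notch1 was not called here (-0.47, SE 0.19, edgeR adjusted p = 0.061), but it was called lower at P0 under 9 of 23 alternatives. Lfng (1.36, SE 0.52, edgeR adjusted p = 0.051) was called higher under 7 of 23 and Notch2 (0.62, SE 0.32, adjusted p = 0.13) under 3 of 23. The Hes1 call was lost without E16.5 WT replicate 1 or without P0 WT replicate 1, and the Jag1 call without WT replicate 2 of either age.

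The comparison of Grhl3-/- with WT asks which genes depend on GRHL3 as the barrier forms. The classes tested before birth were basal-like, differentiated-like, fibroblast-like and, at E16.5, hair follicle-like cells. No Notch gene was called in any of them by edgeR's quasi-likelihood test or by DESeq2. In basal-like cells no Notch gene of 8 had an unadjusted p under 0.05 at E14.5 or E16.5, where 0.00799% and 0.464% of all genes were called. In differentiated-like cells 1 of 6 had one at each age, Jag1 at E14.5 and Notch2 at E16.5, where 1.09% and 2.32% of all genes were called. Hair follicle-like cells at E16.5 had 0 of 9 (0.0846% of all genes called). Fibroblast-like cells had 4 of 9 at E14.5 (Hes5, Hey1, Lfng and Notch2; 3.27% of all genes called) and 1 of 9 at E16.5 (Hey1; 0.879%). Hes5 in those E14.5 cells was 2.11 and 0.266 CPM in WT and 0.137 and 0.0856 CPM in Grhl3-/- (-3.31, SE 1.08, edgeR adjusted p = 0.14), -1.20 without WT replicate 1 (adjusted p = 0.6), and it was called without WT replicate 2 (-4.23, adjusted p = 0.023) and with no filter on low counts (-3.31, adjusted p = 1.6e-05). WT replicate 1 also held 285 of the 322 cells of an unnamed E14.5 cluster led by Fabp7, Aldoc and Fgfbp3, in which Hes5 was 388 CPM, and the part of those cells was not tested.

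At P0, Notch genes differed between the genotypes, and in basal-like cells each of those called was lower in Grhl3-/-. Hes1 was lower by a log2 fold change of -2.24 (SE 0.26, edgeR adjusted p = 1.1e-05), with 316 and 143 CPM in WT and 40.5 and 60.6 CPM in Grhl3-/-. Notch2 was lower by -2.22 (SE 0.30, edgeR adjusted p = 3.9e-05), with 29.1 and 14.0 CPM against 5.24 and 3.56 CPM. Jag2 (-0.71, SE 0.19, adjusted p = 0.0086) and Notch1 (-0.55, SE 0.16, adjusted p = 0.011) were lower by less, with 26.8 and 25.2 CPM against 18.6 and 12.8 CPM and with 207 and 189.8 CPM against 152 and 123 CPM. These 4 of 8 tested were called against 38% of all genes, and 4 of 8 were called lower against 19.5% of all genes. The median over the 8 Notch genes was -0.39, beside a median of -0.0061 over all genes. The marker genes of other stages differed too in these cells: differentiated markers summed to 5735 and 6142 CPM in WT against 3519 and 3060.2 CPM in Grhl3-/-, and hair follicle markers to 1272 and 1239 CPM against 2137 and 2881 CPM. Their part in the Notch results was not tested. Without Grhl3-/- replicate 2 the calls of Jag2 (adjusted p = 0.056) and Notch1 (adjusted p = 0.11) were lost, and without WT replicate 1 that of Notch1 (adjusted p = 0.053). Dll1 (-0.23, SE 0.25), Jag1 (-0.20, SE 0.19), Hey1 (1.42, SE 1.20) and Lfng (0.02, SE 0.21) were not called. For Lfng, with 30.1 and 34.5 CPM in WT and 41.3 and 23.4 CPM in Grhl3-/-, 1 library decided the direction: the difference was called lower without Grhl3-/- replicate 1 (-0.54, adjusted p = 0.03) and was positive without Grhl3-/- replicate 2 (0.37, adjusted p = 0.078).

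The decrease of Hes1 and Notch2 at P0 was seen in other classes too, and the WT libraries disagreed in level. In hair follicle-like cells Hes1 was 316 and 165 CPM in WT against 65.8 and 62.6 CPM in Grhl3-/- (-1.79, SE 0.22, edgeR adjusted p = 7.3e-05), and Notch2 was 25 and 9.4 CPM against 6.12 and 5.37 CPM (-1.47, SE 0.33, adjusted p = 0.0046). These were 2 of 9 tested, with 32.2% of all genes called. Stress genes (such as Fos and Jun) in these cells summed to 1460.0 and 1554 CPM in WT against 2196 and 2455.5 CPM in Grhl3-/-, and over all P0 cells to 1684 and 1802 CPM against 2448 and 2571 CPM. Basal markers in the hair follicle-like cells were 6843 and 6070.5 CPM against 4365 and 3747 CPM, and the part of either in the Notch results was not tested. Jag1 (-0.48, adjusted p = 0.056) and Lfng (-0.50, adjusted p = 0.11) were not called in these cells but were under 8 and 4 of 18 alternatives, among them single libraries left out, for Jag1 P0 WT replicate 2 or either E16.5 Grhl3-/- library and for Lfng P0 WT replicate 1 or P0 Grhl3-/- replicate 1. Both Hes1 and Notch2 were also lower outside the keratinocytes: melanocyte-like cells held 327 and 124 CPM of Hes1 in WT against 36.6 and 74.7 CPM in Grhl3-/-, and 25.9 and 11.2 CPM of Notch2 against 9.67 and 7.08 CPM. Macrophage or Langerhans-like cells held 117 and 45 CPM of Hes1 against 23.9 and 23.6 CPM. Over the 9 classes at P0 with a level in all 4 libraries, both WT libraries lay above both Grhl3-/- libraries in 8 classes for Notch2 and in 7 for Hes1, and WT replicate 1 lay above WT replicate 2 in 9 of 9 classes for each. Of the 9900 genes compared, 9.66% had both WT above both Grhl3-/- libraries in at least 8 of the classes and 16.6% in at least 7. The Chromium v1 WT library held 86.8 CPM of Hes1 and 2.11 CPM of Notch2 in basal-like cells, nearer to the Grhl3-/- libraries than to the Chromium v2 WT libraries. Its Notch1 level there, 87.8 CPM, lay below both Grhl3-/- libraries, and its Jag2 level of 17.5 CPM lay between them. The Chromium v1 library was clustered alone. Basal markers summed to 39585 CPM in its basal-like cells, against 24449.5 and 24570.5 CPM in Chromium v2 WT. Differentiated markers summed to 12944 CPM there, against 5735 and 6142 CPM. The part of the library and of its classes in these results was not tested.

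**Figure D4:**
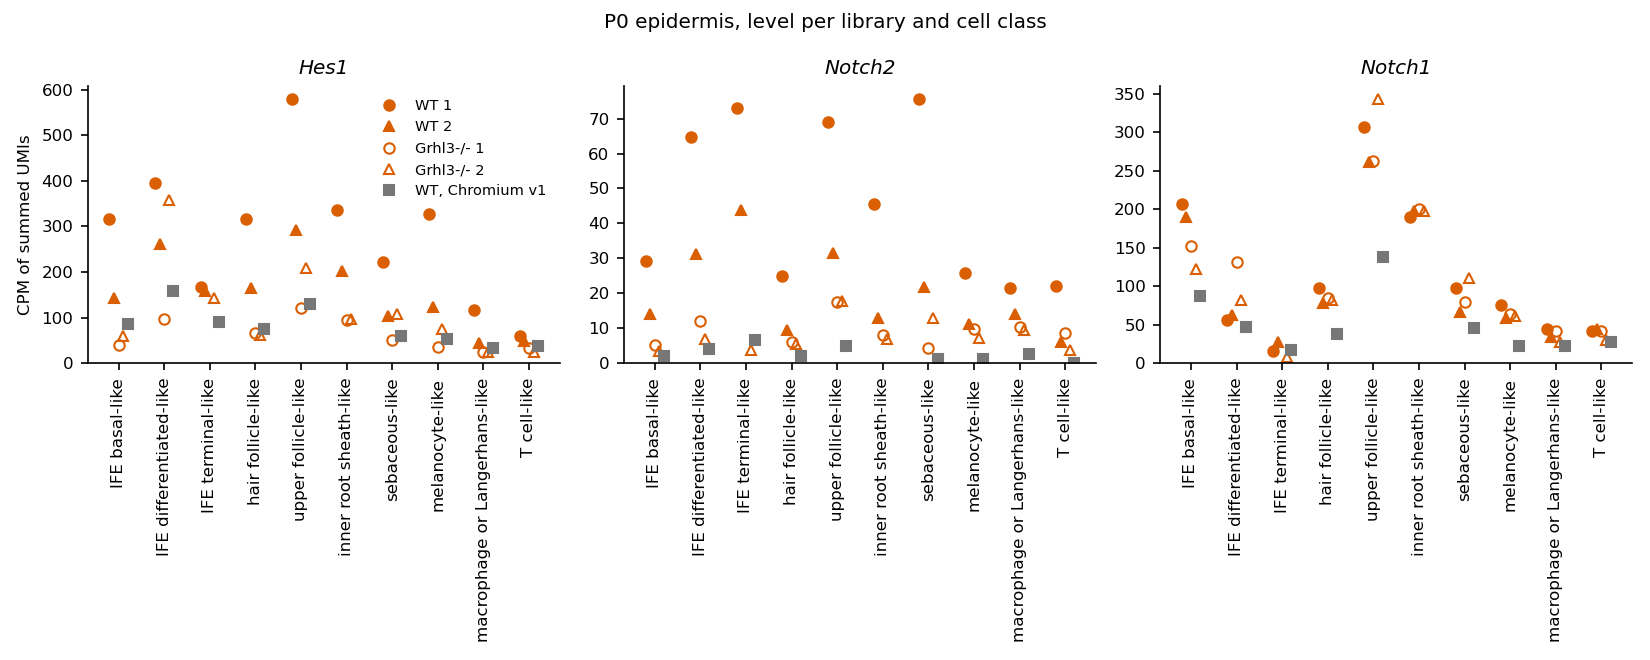
Level (CPM of summed UMIs) of Hes1, Notch2 and Notch1 in each P0 cell class, with 1 point per library: WT replicates 1 and 2, Grhl3-/- replicates 1 and 2 and the Chromium v1 WT library. For Hes1 and Notch2, WT replicate 1 is above WT replicate 2 in every class plotted, and for Notch1 the differentiated-like Grhl3-/- points lie above the Chromium v2 WT points while the basal-like ones lie below those and above the Chromium v1 point.

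In differentiated-like cells at P0 the receptors moved in opposite directions. Notch1 was higher in Grhl3-/- by 0.98 (SE 0.19, edgeR adjusted p = 0.0036), with 43.1 and 51.7 CPM in WT and 129 and 73 CPM in Grhl3-/-, and Notch2 was lower by -2.55 (SE 0.40, edgeR adjusted p = 0.0011), with 67.4 and 35.3 CPM against 11.7 and 6.51 CPM. They were 2 of 6 tested, with 28.7% of all genes called, and fitted with only the P0 libraries the Notch1 call was lost (0.99, adjusted p = 0.052). Hes1 was not called (-0.44, SE 0.43, edgeR adjusted p = 0.47): its WT levels of 324 and 228 CPM lay between the 96.5 and 332 CPM of the Grhl3-/- libraries, and without Grhl3-/- replicate 2 the difference was -1.70 (adjusted p = 0.00058). It was also called lower with clusters at a resolution of 0.5 (-1.30, adjusted p = 0.0065) and with no filter on low counts (-0.51, adjusted p = 0.025). Jag1 was not called either (-0.14, SE 0.18), but with clusters at a resolution of 0.5 it was called higher in Grhl3-/- (0.67, adjusted p = 0.0044). The make-up of this class differed between the genotypes. Its basal marker genes summed to 3742 and 3632 CPM in WT against 24558 and 8725 CPM in Grhl3-/-, and its terminal marker genes to 4670.1 and 4508 CPM against 125 and 1115 CPM. The class held 143 and 152 terminally differentiated-like cells in WT and 8 and 31 in Grhl3-/-. Without those cells, Notch1 was 55.7 and 63.2 CPM in WT against 132 and 82.2 CPM in Grhl3-/-. The part of the make-up in the Notch1 result was not tested.

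**Figure D5:**
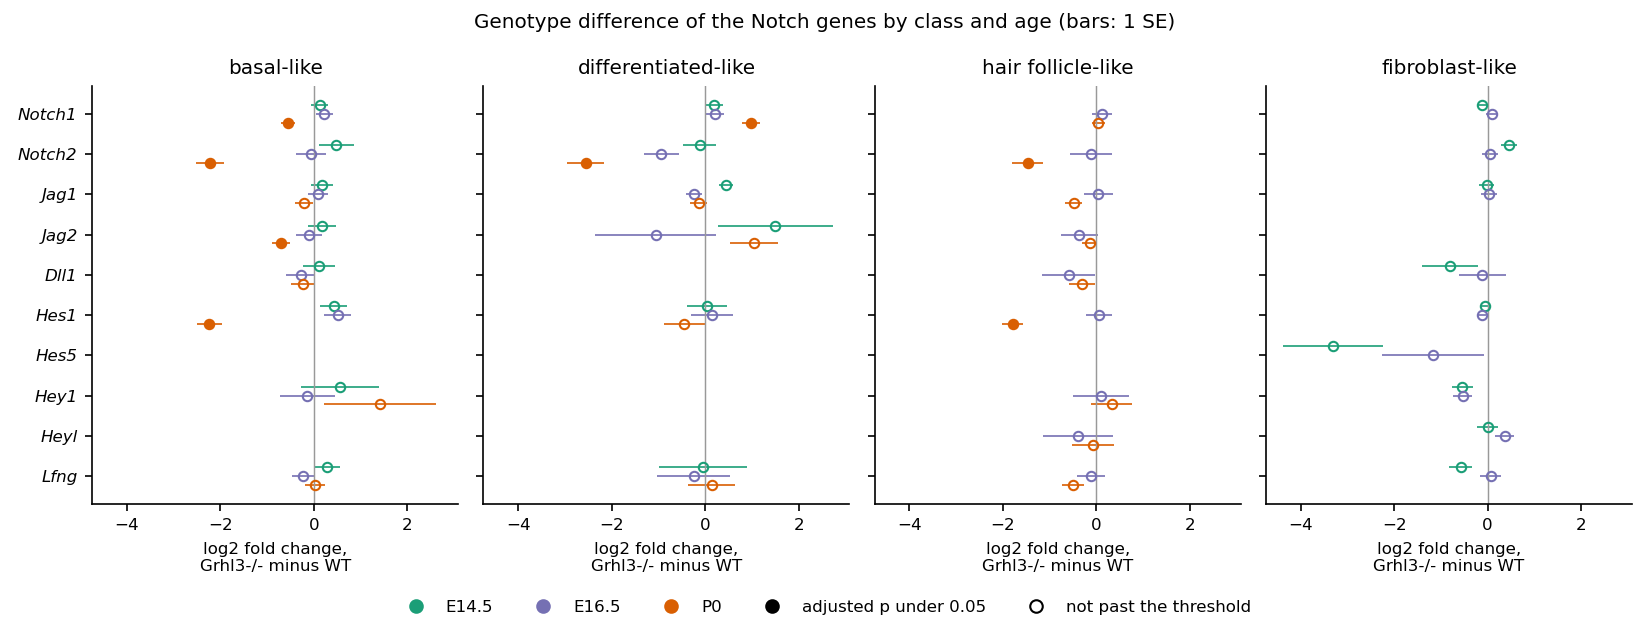
Log2 fold change of each tested Notch gene, Grhl3-/- minus WT, with its standard error (bars), by cell class and age, from edgeR's quasi-likelihood fit. Filled points have an adjusted p under 0.05: none before birth, and at P0 Hes1, Notch2, Jag2 and Notch1 in basal-like cells, Notch1 and Notch2 in differentiated-like cells and Hes1 and Notch2 in hair follicle-like cells.

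Whether the genotype difference itself changed between E16.5 and P0 was tested in the same fit. By Xist and Ddx3y, sex was not balanced between the genotypes at E16.5, whereas all P0 libraries were male. The part of sex in these results was not tested. In basal-like cells it was lower at P0 for Hes1 (-2.75, SE 0.39, edgeR adjusted p = 0.00033), Notch2 (-2.16, SE 0.45, adjusted p = 0.0045) and Notch1 (-0.78, SE 0.23, adjusted p = 0.033), in 3 of 8 tested, where 15.8% of all genes were called and 6.59% of all genes were called lower. In hair follicle-like cells it was lower for Hes1 (-1.85, SE 0.35, edgeR adjusted p = 0.0053), in 1 of 9 against 10.1% of all genes. Leaving out E16.5 Grhl3-/- replicate 2 ended the calls of Notch2 in basal-like cells and of Hes1 in hair follicle-like cells, and the Notch1 call was lost without any 1 of 7 libraries, namely the 4 E16.5 libraries, P0 Grhl3-/- replicate 2 and either P0 WT library, and with clusters at a resolution of 1.5. In hair follicle-like cells Notch2 (-1.35, adjusted p = 0.16) and Lfng (-0.39, adjusted p = 0.57) were called when 1 P0 library was left out, Notch2 without WT replicate 2 (-1.98) and Lfng without Grhl3-/- replicate 1 (-1.02). In differentiated-like cells no Notch gene was called by edgeR or by DESeq2, 2 of 6 (Notch1 and Notch2) had an unadjusted p under 0.05, and 5.56% of all genes were called. Each of these was called when 1 P0 library was left out, Notch1 without Grhl3-/- replicate 2 (1.07) and Notch2 without WT replicate 2 (-2.04), and so was Hes1 without Grhl3-/- replicate 2 (-1.82). Between E14.5 and E16.5 no tested class had a called Notch gene by edgeR or DESeq2. Of all genes, 0.048% were called in basal-like, 0.581% in differentiated-like and 1.72% in fibroblast-like cells. The 1 Notch gene with an unadjusted p under 0.05 was Jag1 in differentiated-like cells.

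The rest of the pathway was taken from a list of 44 other genes: receptors, ligands, targets, modifiers, proteases that cut the receptor, nuclear partners and trafficking genes. Of the 32 of them with a mean of at least 5 CPM in basal-like or differentiated-like cells (here with the terminally differentiated-like ones), 3 were higher in differentiated-like cells in 13 of 13 libraries, against 8.63% of all genes at that level, and 9 were lower in 13 of 13, against 24.4%. Among the 3 were Notch3 and Nrarp, a feedback inhibitor that Notch switches on, and among the 9 were Rbpj and Hes6. Notch3 was 0.605 to 18.1 CPM in basal-like and 17.2 to 57.7 CPM in differentiated-like cells, and Nrarp 19.6 to 87.6 CPM and 64.1 to 292 CPM. In WT basal-like cells between E14.5 and E16.5, 4 of 36 tested genes rose and none fell, against 16.1% of all genes called, among them Notch3 (1.92), Nrarp (1.08) and Dtx2 (0.86). Between E16.5 and P0, 23 of 36 rose and 2 fell, against 60.1% of all genes called in either direction. All 7 nuclear genes rose, among them the coactivators Ep300 (1.83) and Maml3 (1.59), and so did 8 of 11 trafficking and 4 of 8 protease genes. Nuclear genes also rose in hair follicle-like cells (6 of 7) and in differentiated-like cells (6 of 7, with 1 lower). The non-canonical ligand Dlk1 went from 262 and 229.7 CPM to 0.13 and 0.26 CPM in basal-like cells, and from 266 and 142 CPM to 0 and 0 CPM in differentiated-like cells. Fibroblast and erythroid marker sums were lower at P0 in both classes, where differentiated-like cells held 87.8 and 61.0 CPM after 2818 and 1659 CPM of the first and 2.42 and 1.84 CPM after 6549 and 9989.9 CPM of the second, and their part in the Dlk1 levels was not tested. In differentiated-like cells 13 of 33 rose and 3 fell over the same interval, against 46.9% of all genes called, with Ep300 at 1.87.

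In Grhl3-/- basal-like cells at P0, 15 of the 36 other pathway genes were lower and none was higher, against 19.5% of all genes called lower, with a median of -0.40. The smallest adjusted p-values belonged to Notch3 (-1.84, SE 0.27, edgeR adjusted p = 7.7e-05), the ubiquitin ligase Mib1 that ligands need (-0.97, SE 0.15, adjusted p = 0.00011), Ep300 (-0.88, SE 0.15, adjusted p = 0.00027), Dtx2 (-0.74, SE 0.14, adjusted p = 0.00064) and the receptor-cutting protease Adam10 (-1.01, SE 0.20, adjusted p = 0.00082). In differentiated-like cells 8 of 33 were lower and 2 higher, against 28.7% of all genes called. Among those with the smallest adjusted p-values, the proteases Adam17 (-1.21, SE 0.25, edgeR adjusted p = 0.0048) and Adam10 (-1.11, SE 0.25, adjusted p = 0.0076) were lower, and Hes6 (1.11, SE 0.23, adjusted p = 0.0045) and Dtx3 (1.4, SE 0.29, adjusted p = 0.0049) were higher. Hair follicle-like cells at P0 had 8 of 39 lower and 1 higher, against 32.2% of all genes called.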

How the data were processed

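Single cells of mouse back skin were profiled with 10x Chromium libraries. The deposited values are UMI counts per gene and barcode, which the authors made with Cell Ranger against mm10 (version 1.3.1 in the submitters' processing notes), without normalization. Barcodes were kept by the authors' limits on detected genes (600 to 4800 before birth, 900 to 7700 after) and on mitochondrial UMIs (up to 10%), which left 86507 of 97363. Doublets were kept, and 5% of cells were removed as doublets in an alternative. Cells of an age were integrated and clustered with Seurat 5.3.0 (3000 variable genes, 30 components, resolution 1) without the 10 Notch genes or 44 other pathway genes. The Chromium v1 library was an exception and was clustered alone with the same settings. Marker scores named the clusters, with limits set after the clusters were seen.

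UMIs were summed per library and class (at least 20 cells). The sums of the 12 Chromium v2 libraries were fitted with edgeR 4.0.16 (quasi-likelihood, TMM, a filter on low counts), with 1 mean per age and genotype, and a result was called at an adjusted p under 0.05. The fit was also run on simulated counts in which only a small set of genes differed, in 1 group. In basal-like cells at P0, 38% of all genes were called between genotypes. The simulation was thus unlike those data, and nothing is concluded from it here. Keratinocytes were ordered with scanpy 1.11.5. Of the other pathway genes, at most the 5 with the smallest adjusted p per keratinocyte contrast were named. Alternatives were other size factors, no count filter, DESeq2 1.42.0, other clusterings, fewer libraries, a replicate block and each library left out. The members and lists were chosen with earlier results of these data known. Results for some genes are not reported here.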

Additional observations from a re-analysis of the deposited data

Results flagged for a closer look

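The results below stood out because the difference between Grhl3-/- and WT was not the same at P0 as at E16.5, by edgeR's quasi-likelihood test of the difference itself. Sex was not balanced between the genotypes at E16.5, and its part was not tested. In basal-like cells the change of the log2 difference was -2.75 for Hes1, -2.16 for Notch2 and -0.78 for Notch1. Among other pathway genes it was -2.25 for Notch3, -1.21 for Mib1, -1.08 for Adam10, -0.81 for Ep300 and -0.78 for Dtx2. In hair follicle-like cells it was -1.85 for Hes1, and in differentiated-like cells -1.35 for the receptor-cutting protease Adam17. At E16.5 the basal-like levels of Hes1 were 44.9 and 49.2 CPM in WT and 70.2 and 66.7 CPM in Grhl3-/-, and at P0 they were 316 and 143 CPM against 40.5 and 60.6 CPM. Basal-like Notch3 was 3.52 and 3.35 CPM against 4.97 and 4.27 CPM at E16.5, and 16.3 and 18.1 CPM against 5.7 and 3.56 CPM at P0. The other pathway genes named were 5 of 36 tested in basal-like cells, where 15.8% of all genes were called, and 1 of 33 in differentiated-like cells, where 5.56% were called. The changes of Ep300 and Adam17 were near the threshold, with edgeR adjusted p-values of 0.0487 and 0.0493.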

How the results depend on the processing

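Of 170 Notch gene tests, 32 were called, and 16 of these were called in the same direction under every alternative run; 109 of the 138 uncalled ones were called under none. With no filter on low counts, the Notch genes called went from 1 to 3 (basal-like, WT, E16.5 minus E14.5), 3 to 9 (differentiated-like, WT, P0 minus E16.5), 2 to 4 (hair follicle-like, genotype at P0), 1 to 2 (the change of the genotype difference from E16.5 to P0 in hair follicle-like cells), 0 to 1 (that change in differentiated-like cells, the change from E14.5 to E16.5 in fibroblast-like cells, and genotype at E16.5 in basal-like and in differentiated-like cells) and 0 to 2 (genotype at E14.5 in fibroblast-like cells). Leaving out 1 library at a time gave 0 to 2 called genes in basal-like, 1 to 3 in differentiated-like and 2 to 4 in fibroblast-like cells between E14.5 and E16.5, 2 to 7 in differentiated-like cells between E16.5 and P0, 2 to 5 for genotype at P0 in basal-like cells, 0 to 1 for genotype at E14.5 in fibroblast-like cells, and 1 to 4, 0 to 2 and 0 to 2 for the change from E16.5 to P0 in basal-like, differentiated-like and hair follicle-like cells. Basal-like Lfng at P0 turned from 0.02 to -0.54 without Grhl3-/- replicate 1 and was 0.37 without Grhl3-/- replicate 2. In differentiated-like cells, 1 Notch gene was called between genotypes with only the libraries of the age, both at E14.5 (0 in the main result) and at P0 (2 in the main result), and 5 from E16.5 to P0 with only the WT libraries. At a resolution of 0.5 those cells had 6 called genes from E16.5 to P0, 4 for genotype at P0, where Jag1 turned from -0.14 to 0.67, and 1 for the change of the genotype difference. The fibroblast-like Notch1 call (0.0501, DESeq2 adjusted p) was lost with DESeq2. The cause was not tested.

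Same-numbered libraries shared only a number, since nothing in the labels pairs them and their deviations from the group means correlated at -0.22 to 0.07. A replicate block called 29 tests, 25 of them called without it (7 lost, 4 gained), and a crossed pairing, chosen after seeing the data, called 30. In differentiated-like cells the block gave 1 called gene for each age step (2 and 3 without it) and 1 for the change of the genotype difference, and the crossed block gave 1 for E16.5 minus E14.5.

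The ratio of differentiated-like over basal-like cells leaves out terminally differentiated-like cells, which the tests count with the differentiated-like ones. For this ratio, 5 CPM was added to both levels. At a resolution of 0.5, only the 4 E14.5 libraries and the Chromium v1 library kept both classes of this ratio. Its median log2 was then 1.08 for Notch1 (0.04 in the main result over 13 libraries and 1.07 over the same 5) and 1.66 for Jag1 (-0.04 and 1.66). Along the order, bins of equal width turned Heyl from 0.11 to -0.11 and moved Notch1 from -0.11 to -1.16, Jag1 from -0.33 to -0.72 and Hes1 from 0.98 to 0.57. The shares of basal-like cells depended on depth: unthinned they were 46.6% for Notch1, 9.92% for Jag2, 15.4% for Dll1, 29.7% for Lfng and 41.7% for Hes1, and with at least 2 UMIs 3.48%, 0%, 0.189%, 0.521% and 2.77%.

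Counts of called genes over all genes moved by more than 1.5 times for most contrasts. They were 2016 in basal-like cells from E14.5 to E16.5 (841 without E14.5 WT replicate 2), 1973 for the change of the genotype difference from E16.5 to P0 there (1181 without E16.5 Grhl3-/- replicate 2), 3209 in differentiated-like cells between genotypes at P0 (1336 with only the P0 libraries), 4189 in hair follicle-like cells at P0 (2424 without Grhl3-/- replicate 2) and 5203 in fibroblast-like cells between the ages (3198 without E16.5 WT replicate 1). Differentiated-like cells had 2160 and 5253 for the 2 age steps (719 and 3142 with the block). The change of the genotype difference from E16.5 to P0 had 623 (182 to 1299) in differentiated-like and 1310 (558 to 1661) in hair follicle-like cells, and that from E14.5 to E16.5 had 6 (2 to 144), 65 (1 to 532) and 243 (38 to 1221) in basal-like, differentiated-like and fibroblast-like cells. For genotype at E14.5 and E16.5 the counts were 1 (1 to 45) and 58 (17 to 272) in basal-like, 122 (8 to 1291) and 260 (42 to 768) in differentiated-like and 461 (80 to 1504) and 124 (21 to 673) in fibroblast-like cells, and 11 (5 to 40) at E16.5 in hair follicle-like cells. With 2 libraries per group, small changes may have been missed.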

Other observations

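Some cells that carried Notch genes fell in clusters that no marker list named. An E14.5 cluster of 322 cells, 285 of them from WT replicate 1, was led by Fabp7, Aldoc and Fgfbp3. Its Hes5 level was 388 and 130 CPM in WT replicates 1 and 2, from 630 and 19 UMIs, above the 17.9 and 17.4 CPM of dermal condensate-like cells in the same libraries. Lfng was 105 and 109 CPM there, Notch1 69.6 and 75.2 CPM and Hey1 60.3 and 41 CPM.

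At P0 an unnamed cluster with Krt6a and Sprr2 genes held 56 and 27 cells in WT and 156 and 171 cells in Grhl3-/-. Hes1 in it was 394 and 209 CPM in WT against 56.8 and 70.1 CPM in Grhl3-/-, and Notch2 was 47 and 24.1 CPM against 11.9 and 11.2 CPM. Notch1 was 88.5 and 112.5 CPM against 96.8 and 61.6 CPM in the same cells, so its ranges overlapped. Jag1 was higher in both Grhl3-/- libraries there, at 41.2 and 34.9 CPM against 18.8 and 21.4 CPM in WT. These values were not tested.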
